A study of Rattus norvegicus with 12 samples.

Results

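AY172581.9 (ENSRNOG00000030478) and AY172581.24 (ENSRNOG00000043866) are genes of the rat mitochondrial genome that the count table lists under a numbered label in place of a functional name. They were chosen by their total counts, as the 2 rows with most counts among the 24 rows whose names begin with AY172581., in a table of 30560 genes. The mitochondrial genome holds 37 rows of that table, of which the other 13 are mRNAs with names beginning with Mt-. The totals were summed over all libraries, so the abundance of both genes is described here without a test. Summed over 12 libraries, AY172581.9 had 23041149 counts and AY172581.24 had 21753684, while AY172581.2, the next row and the first one outside the rule, had 5741. Neither the table nor the gene references used here give the class, length, position or sequence of either gene, so no role is assigned to them.

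Mitochondria carry a small circular genome that is copied from both strands as long precursor RNAs. These precursors are cut into the mRNAs of respiratory chain and ATP synthase subunits, the rRNAs of the mitochondrial ribosome and the tRNAs used to translate the mRNAs. Neighbouring RNAs of a strand thus start from shared precursors and can still differ in level through processing and decay. Red muscle is rich in oxidative fibres and in mitochondria.

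All animals were male wild-type Wistar Kyoto rats aged 9 weeks, and the tissue was gastrocnemius, a muscle of the calf, of which the red inner portion was taken. One group of 6 libraries came from mitochondria immunoprecipitated from fresh tissue, which were then digested with RNase A, which degrades RNA, and proteinase K, which degrades protein. The other group of 6 came from untreated whole muscle of the same 6 animals, which had been snap frozen. RNA of both groups passed a DNase I digest on a column and a library kit that depletes rRNA, with 10 ng of RNA per mitochondria library and 50 ng per muscle library. The libraries therefore differ in purification, enzyme treatment, freezing and RNA input together, and these cannot be told apart. Whether the depletion step acted on either gene was not tested. Each library is a bulk sample, in which fewer cells of a type and less RNA per cell cannot be told apart, nor can fewer mitochondria and less RNA per mitochondrion.

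Mitochondria libraries held 720111 to 1785865 gene counts and muscle libraries 24309444 to 32055355. Between 27803 and 28708 genes had a count in a mitochondria library, against 16931 to 17776 in a muscle library. Of 8 markers of skeletal muscle, 7 were in the table, and they summed to 407 to 718 CPM (counts scaled to a common library total) in mitochondria libraries and 85849 to 116011 CPM in muscle libraries. Endothelial markers (4 of 4 found) summed to 221 to 388 CPM in mitochondria and 313 to 528 CPM in muscle, and adipocyte markers (3 of 3) to 40.3 to 68.7 CPM in mitochondria and 83.9 to 148 CPM in muscle. Markers of macrophages and leukocytes (4 of 4) summed to 172 to 295 CPM in mitochondria and 20.9 to 34.1 CPM in muscle. Those of Schwann cells (3 of 3) summed to 58.8 to 108 CPM in mitochondria and 14.7 to 103 CPM in muscle, and those of red blood cells (2 of 4) to 25.8 to 66.4 CPM in mitochondria and 26.4 to 95.8 CPM in muscle. On the same scale, 84.3% of all genes tested were called higher in mitochondria, at a median log2 fold change of 4.61 (edgeR, given below). None of the markers found was at 0 in either group, and the part of other cell types in the results that follow was not tested.

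The first question was how abundant both genes were in each kind of library. AY172581.9 and AY172581.24 held the most counts of all genes in each of the 6 mitochondria libraries and in 5 of the 6 muscle libraries. Counts are not divided by gene length here, so this order is one of reads and not of molecules. In whole muscle replicate 5, Ttn, the gene of the giant sarcomere protein titin, stood between them, with 10.1% of counts against 10.9% for AY172581.9 and 9.77% for AY172581.24. Next in counts came Mt-co1, which encodes the catalytic subunit of complex IV, in each mitochondria library, with 1.03% to 3.52% of counts, and Ttn in the other 5 muscle libraries, with 5.71% to 8.52%.

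AY172581.9 took a lowest share of 4.69%, a median of 12.9% and a highest of 19.1% of all gene counts in mitochondria, against 9.55%, 13.6% and 15.0% in whole muscle. Mitochondria replicates 3 and 1 were the lowest libraries of either group and replicates 4 and 6 the highest, so that the groups overlapped with muscle inside the mitochondrial range. The mean was 12.0% ± 5.43 in mitochondria and 12.9% ± 2.15 in muscle (SD, n = 6 each), and 3 of the 6 animals had more in mitochondria. The difference of -0.810 percentage points lay within the replicate spread (two-sided exact permutation test over the libraries, p = 0.74, 0.864 after Benjamini-Hochberg adjustment over the 7 measures of level and ratio tested).

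AY172581.24 took a lowest share of 4.75%, a median of 14.5% and a highest of 22.2% of all counts in mitochondria, against 9.77%, 12.9% and 13.4% in whole muscle. Mitochondria replicates 4, 6 and 5 lay above every muscle library and replicates 3 and 1 below every one, so that the muscle values fell inside the mitochondrial range. The mean was 13.4% ± 6.80 in mitochondria and 12.0% ± 1.76 in muscle (SD, n = 6 each), again higher in mitochondria in 3 of 6 animals. The difference of 1.39 points did not pass the test either (exact permutation p = 0.641, adjusted p = 0.864).

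**Figure D1:**
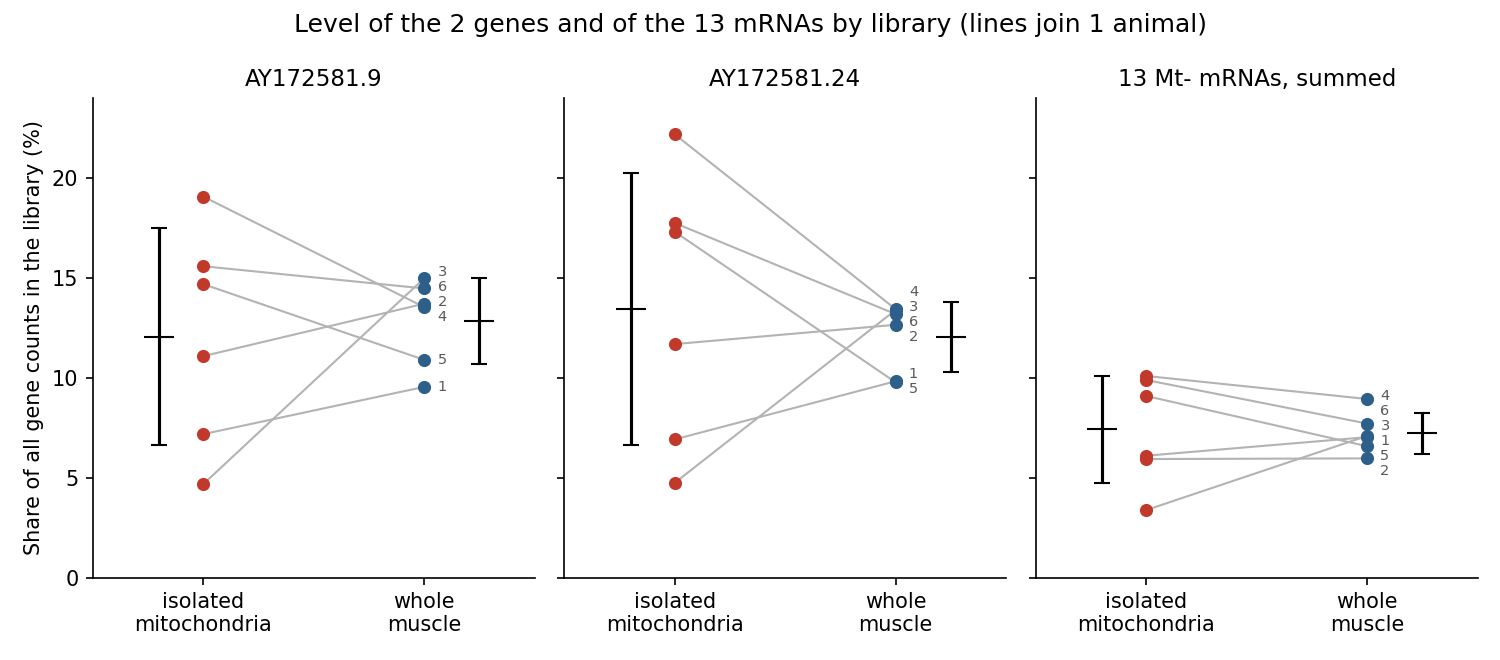
Share of all gene counts in the library (%, y axis) for AY172581.9, AY172581.24 and the sum of the 13 Mt- mRNAs, with isolated mitochondria left and whole muscle right. Points are libraries, grey lines join libraries of 1 animal, numbers are animals, and bars give mean ± SD (n = 6). AY172581.9 ran from 4.69% to 19.1% in mitochondria and from 9.55% to 15.0% in muscle, and the 13 mRNAs ran from 3.38% to 10.1% in mitochondria and from 5.97% to 8.94% in muscle.

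The spread of both genes among mitochondria libraries went with that of the mitochondrial genome as a whole, of which they are the larger part. Its 37 rows together took from 12.9% of counts in mitochondria replicate 3 to 51.5% in replicate 4, against 26.4% to 35.9% in muscle libraries. The highest mitochondria library had 4.07 times the share of AY172581.9 of the lowest, 4.67 times that of AY172581.24 and 2.98 times that of the 13 mRNAs. Among muscle libraries these factors were 1.57 for AY172581.9, 1.38 for AY172581.24 and 1.5 for the mRNAs. Both genes thus spread more widely than the mRNAs among mitochondria libraries, a contrast that was not tested.

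Across the whole table, edgeR's quasi-likelihood test put neither gene past its threshold, an adjusted p under 0.05, with library totals as the scale. The log2 fold change, mitochondria over muscle, was -0.09 ± 0.34 for AY172581.9 (SE, edgeR adjusted p = 0.788) and 0.16 ± 0.34 for AY172581.24 (edgeR adjusted p = 0.656). This fit called 93.3% of the 24679 genes tested, with 84.3% of the genes tested higher and 9.03% lower in mitochondria, and the median log2 fold change of all genes was 4.61. That background depended on which genes the filter kept. Without any 1 muscle library, 20003 to 20007 genes were tested, at medians of 3.17 to 3.22. Without any 1 mitochondria library the medians were 4.70 to 4.87. The calls of both genes depended on the scale used. With TMM factors, which rescale the libraries by the bulk of genes, the values were -2.12 for AY172581.9 and -1.85 for AY172581.24 (edgeR adjusted p = 3.85e-05 and 0.000248), and the median of all genes was 2.45. With RLE factors they were -1.70 and -1.44 (edgeR adjusted p = 0.000588 and 0.00333), at a median of 2.87, so under both sets of factors both genes were called lower in mitochondria. TMM called 93.4% and RLE 93.1% of all genes tested. Calls in the higher direction made up 90.3% of all calls with total counts, 66.9% with TMM and 71.4% with RLE.

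The second question was whether the make-up of the mitochondrial genome's own output differed between isolated mitochondria and whole muscle. Together AY172581.9 and AY172581.24 held 69.4% to 80.1% of mitochondrial genome counts in mitochondria and 73.4% to 81.5% in muscle. The 13 mRNAs held 19.6% to 30.0% in mitochondria and 18.5% to 26.6% in muscle. The other 22 unnamed rows held 0.275% to 0.95% in mitochondria and 0.0132% to 0.0237% in muscle, a pair of ranges that did not overlap. A higher level in mitochondria was the common case on this scale. With mitochondrial genome counts as library size, edgeR called 80.8% of all genes tested higher, at a median log2 fold change of 4.94. Of these 22 rows, 4 had no count in any library, 7 had 1 to 10 counts over all 12 libraries and 11 had more. After AY172581.2 the most abundant were AY172581.21 with 4747 counts, AY172581.22 with 3091 and AY172581.19 with 2981.

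**Figure D2:**
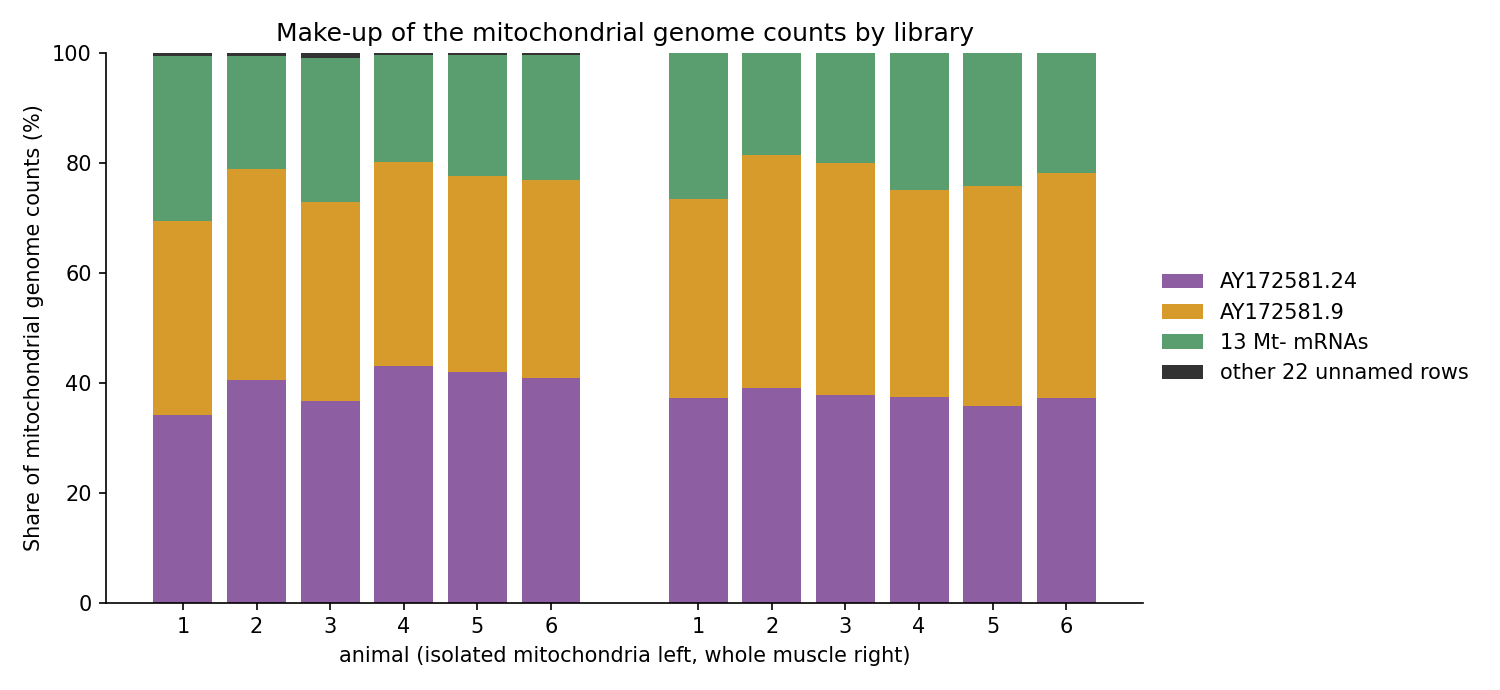
Share of mitochondrial genome counts (%, y axis) held by AY172581.24, AY172581.9, the 13 Mt- mRNAs and the other 22 unnamed rows in each library, with the 6 isolated mitochondria libraries left and the 6 whole muscle libraries right, by animal. AY172581.24 takes the lowest segment and AY172581.9 the next, together 69.4% to 80.1% in mitochondria and 73.4% to 81.5% in muscle, and the dark segment of other unnamed rows can be seen in mitochondria, while in muscle it is at most 0.0237%.

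AY172581.9 held 35.4% at the lowest, 36.1% at the median and 38.4% at the highest of mitochondrial genome counts in mitochondria, against 36.1%, 40.5% and 42.4% in whole muscle. It was lower in mitochondria than in muscle of the same animal in 6 of 6 animals, with differences from -6.01 to -0.653 points. The groups overlapped all the same, because muscle replicates 1 and 4 were low. The mean was 36.4% ± 1.12 in mitochondria and 39.9% ± 2.52 in muscle (SD, n = 6 each). The difference of -3.47 points had an exact permutation p of 0.0195 and did not pass after adjustment over the 7 measures (adjusted p = 0.0682). Without muscle replicate 1 it was -4.22 points and passed (exact permutation test, adjusted p = 0.0303), and without both libraries of animal 1 it was -4.01 points and did not (adjusted p = 0.0556). With a whole animal left out, 1 measure alone could not pass after adjustment over the 7, however far apart the groups. Set against mitochondrial genome counts other than those of both genes, AY172581.9 stood at 155% ± 27.2 in mitochondria and 180% ± 36.0 in muscle, and the difference was far from passing (exact permutation test, adjusted p = 0.677).

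AY172581.24 held 34.1% at the lowest, 40.7% at the median and 43.1% at the highest in mitochondria, against 35.9%, 37.3% and 39.1% in muscle. Mitochondria replicates 2, 4, 5 and 6 lay above every muscle library, and replicate 1 below every one. The mean was 39.5% ± 3.44 in mitochondria and 37.4% ± 1.05 in muscle (SD, n = 6 each), higher in mitochondria in 4 of 6 animals, and the difference of 2.09 points did not pass (exact permutation p = 0.186, adjusted p = 0.434). The steadier gene was thus AY172581.9 among mitochondria libraries and AY172581.24 among muscle libraries, as the SDs show, a contrast that was not tested.

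In a second edgeR fit of the whole table, with the sum of mitochondrial genome counts as library size, neither gene passed. The log2 fold change was -0.13 ± 0.31 for AY172581.9 (SE, edgeR adjusted p = 0.692) and 0.08 ± 0.31 for AY172581.24 (edgeR adjusted p = 0.815). This fit called 85.1% of the 24679 genes, with 80.8% of them all higher and 4.33% lower in mitochondria, at a median of 4.94. TMM factors computed over the mitochondrial genome rows moved the values to -0.70 and -0.47, of which that of AY172581.9 passed (edgeR adjusted p = 0.0208 and 0.125). A fit of the mitochondrial genome rows alone, chosen after seeing the data, gave the same -0.13 for AY172581.9 with an SE of 0.06, and it passed there in edgeR (adjusted p = 0.0363) and not in DESeq2 (adjusted p = 0.213). AY172581.24 did not pass in that fit, at 0.08 (edgeR adjusted p = 0.212, DESeq2 adjusted p = 0.509).

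Of the 25 mitochondrial genome rows tested, 11 were higher, 1 was lower and 13 were not called with total counts, beside 84.3% of all genes that were higher and 9.03% that were lower, at a median log2 fold change of 0.40 against 4.61 over all genes. With mitochondrial genome counts as library size, 10 were higher, 0 lower and 15 not called, beside 80.8% and 4.33% of all genes, at a median of 0.42 against 4.94. Both genes were among the rows not called in either fit. With TMM factors over all genes, 9 of the 25 rows were higher and 16 lower, beside 62.5% and 30.9% of all genes. With RLE factors 9 were higher and 15 lower, beside 66.5% and 26.7%.

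The ratio of AY172581.24 to AY172581.9 does not depend on library size, and gene length cancels when 1 ratio is compared between libraries. It was 0.963, 1.05, 1.01, 1.16, 1.18 and 1.14 in mitochondria replicates 1 to 6, against 1.03, 0.923, 0.894, 0.992, 0.896 and 0.911 in muscle replicates 1 to 6. AY172581.24 had more counts than AY172581.9 in each mitochondria library except replicate 1, and fewer in each muscle library except replicate 1. Animal 1 thus went against the other 5, and its libraries are what made the groups overlap. Counting error was small beside most of these differences: the 95% Wilson interval was 0.952 to 0.975 for mitochondria replicate 1 and 1.028 to 1.031 for muscle replicate 1. For mitochondria replicate 3 it was 0.999 to 1.027 and included 1, so the order of both genes in that library is not settled.

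The mean log2 ratio was 0.11 ± 0.12 in mitochondria and -0.09 ± 0.08 in muscle (SD, n = 6 each), a difference of 0.20 or a 1.15-fold higher ratio, positive in 5 of 6 animals. The exact permutation p was 0.0130, and the result did not pass after adjustment over the 7 measures (adjusted p = 0.0682). Within animals the log2 difference ran from -0.10 in animal 1 to 0.39 in animal 5. Without mitochondria replicate 1 the difference was 0.24, and without muscle replicate 1 it was 0.23, and both passed (exact permutation test, adjusted p = 0.0455 and 0.0303). Without both libraries of animal 1 it was 0.26 and did not pass (exact permutation test, adjusted p = 0.0556). The groups did not overlap in that setting. With a whole animal left out, 1 measure alone could not pass after adjustment over the 7, so that setting cannot decide. Mitochondria replicate 1 was also the library with the fewest gene counts in all, while replicate 3 had the fewest mitochondrial genome counts (114922 against 146208 in replicate 1). With every library thinned to 114922 mitochondrial genome counts, the log2 difference was 0.20 (exact permutation test, adjusted p = 0.0530).

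**Figure D3:**
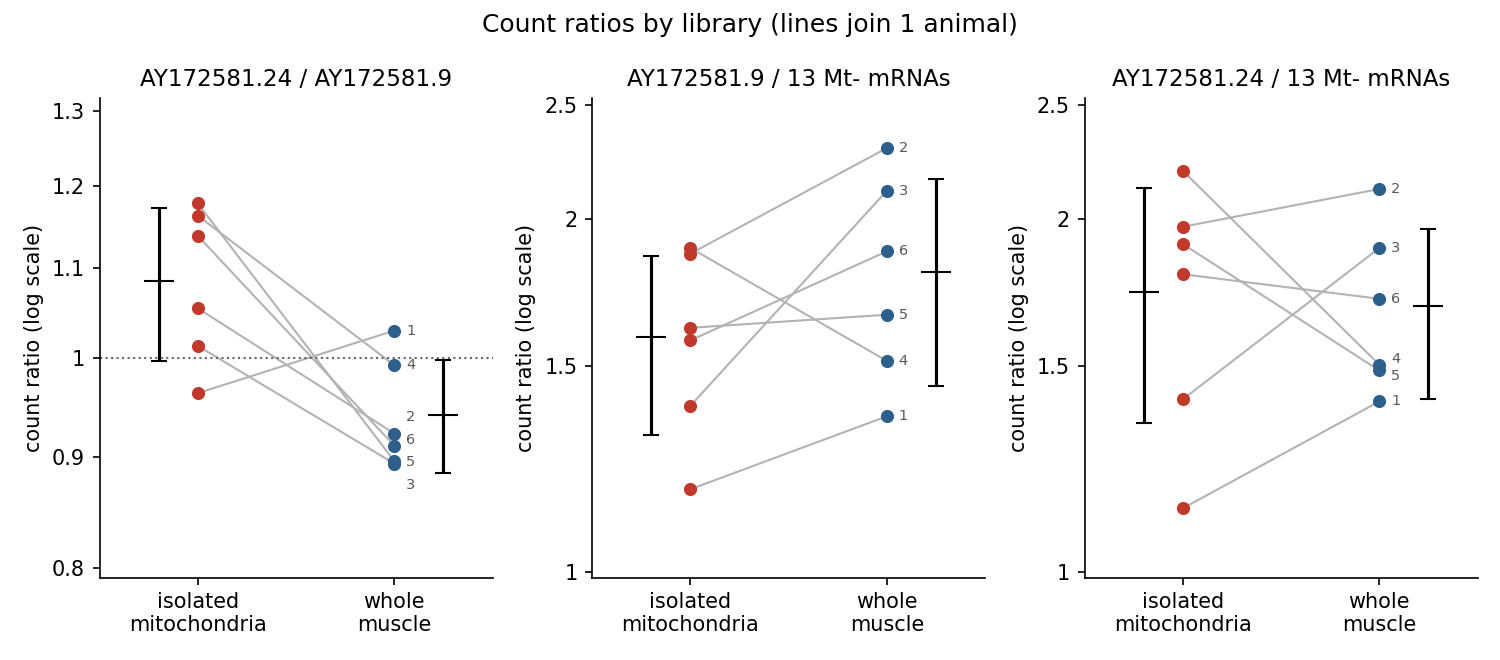
Count ratios (y axes, log scale) of AY172581.24 to AY172581.9 and of each gene to the sum of the 13 Mt- mRNAs, with isolated mitochondria left and whole muscle right. Points are libraries, grey lines join libraries of 1 animal, numbers are animals, and bars give the mean ± SD of the ratios (n = 6). In the left panel 5 of 6 mitochondria libraries and 1 of 6 muscle libraries lie above the dotted line at a ratio of 1, and the line of animal 1 runs against the others.

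Against the sum of the 13 mRNAs, AY172581.9 had a ratio of 1.18 at the lowest, 1.60 at the median and 1.89 at the highest in mitochondria, against 1.36, 1.77 and 2.30 in whole muscle. Animal 1 had the lowest ratio in both groups, and animal 4 was the exception to a lower ratio in mitochondria. The log2 difference was -0.18, lower in mitochondria in 5 of 6 animals, and was within the spread between replicates (exact permutation p = 0.290, adjusted p = 0.508).

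AY172581.24 had a ratio to the 13 mRNAs of 1.13 at the lowest, 1.85 at the median and 2.20 at the highest in mitochondria, against 1.40, 1.61 and 2.12 in muscle. Mitochondria replicate 4 had the highest and replicate 1 the lowest ratio of all 12 libraries. The log2 difference was 0.02, higher in mitochondria in 3 of 6 animals (exact permutation p = 0.892, adjusted p = 0.892). Its sign depended on the yardstick, at -0.030 against the geometric mean of the 13 mRNAs and -0.19 against their sum without Mt-co1, and neither passed (exact permutation test, adjusted p = 0.874 and 0.485).

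The sum of the 13 mRNAs is dominated by Mt-co1, which made up 32.5% ± 1.93 of it in mitochondria and 41.8% ± 2.04 in muscle (SD, n = 6 each). Each gene was therefore also set against each mRNA, which gave 26 ratios that share their numerators. None of the 26 passed after adjustment over them, while 5 of 13 for AY172581.9 and 4 of 13 for AY172581.24 had an unadjusted exact permutation p under 0.05. Even at the smallest p this test allows, a single ratio alone could not pass after adjustment over the 26. The lack of a call therefore does not show that a ratio was alike in both groups. Of the differences, 9 of 13 were negative for AY172581.9 and 7 of 13 for AY172581.24.

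The lowest adjusted p was shared by 4 ratios, to Mt-nd5 for both genes and to Mt-nd1 and Mt-cyb for AY172581.9. The ratio of AY172581.9 to Mt-nd5, a subunit of complex I, the first enzyme of the respiratory chain, was 9.31 at the lowest, 15.0 at the median and 20.6 at the highest in mitochondria, against 21.0, 30.4 and 41.8 in muscle. These groups did not overlap, the only case among the 26 ratios, and the log2 difference was -1.10, lower in mitochondria in 6 of 6 animals (exact permutation p = 0.0021645, the smallest the design allows; adjusted p = 0.0563). For AY172581.24 the same ratio was 8.97, 16.8 and 23.9 in mitochondria, against 21.6, 27.7 and 38.6 in muscle, a log2 difference of -0.90 that was negative in 5 of 6 animals (exact permutation p = 0.00866, adjusted p = 0.0563). A ratio can move through either of its parts. With mitochondrial genome counts as library size, the log2 fold change of Mt-nd5 itself was 0.99 (edgeR adjusted p = 0.0118). On that scale AY172581.9 was at -0.13 and AY172581.24 at 0.08, and neither passed. With total counts Mt-nd5 was at 0.91 (edgeR adjusted p = 0.000179).

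The ratio of AY172581.9 to Mt-nd1, another complex I subunit, was 16.5 at the lowest, 24.6 at the median and 29.8 at the highest in mitochondria, against 27.1, 39.0 and 52.3 in muscle. Its log2 difference of -0.74 was negative in 6 of 6 animals (exact permutation p = 0.00649, adjusted p = 0.0563). Its ratio to Mt-cyb, which encodes cytochrome b, a subunit of complex III, was 10.5, 15.9 and 19.4 in mitochondria, against 16.4, 22.1 and 25.7 in muscle, with a log2 difference of -0.54 that was also negative in 6 of 6 animals (exact permutation p = 0.00866, adjusted p = 0.0563). In both cases the highest mitochondria libraries reached into the muscle range. With mitochondrial genome counts as library size, Mt-nd1 itself was at 0.61 and Mt-cyb at 0.42 (log2), without passing (edgeR adjusted p = 0.132 and 0.284). With total counts Mt-nd1 was at 0.58 and passed, and Mt-cyb was at 0.38 and did not (edgeR adjusted p = 0.0110 and 0.106).

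Against Mt-atp6, a subunit of ATP synthase, and Mt-co1 the differences of AY172581.24 were positive in every animal without passing. Its ratio to Mt-atp6 was 18.3 at the lowest, 27.1 at the median and 34.8 at the highest in mitochondria, against 15.3, 17.1 and 23.5 in muscle, a log2 difference of 0.51 that was positive in 6 of 6 animals (exact permutation p = 0.0152, adjusted p = 0.0657). Its ratio to Mt-co1 was 3.69, 5.47 and 6.34 in mitochondria, against 3.51, 3.93 and 4.91 in muscle, a log2 difference of 0.39 that was positive in 6 of 6 animals (exact permutation p = 0.0303, adjusted p = 0.0938). Its ratio to Mt-co3, a further complex IV subunit, averaged 28.4 ± 5.96 in mitochondria and 28.3 ± 5.54 in muscle (SD, n = 6 each). With mitochondrial genome counts as library size, Mt-atp6 itself was at -0.44 and Mt-co1 at -0.31 (log2), without passing (edgeR adjusted p = 0.272 and 0.393).

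**Figure D4:**
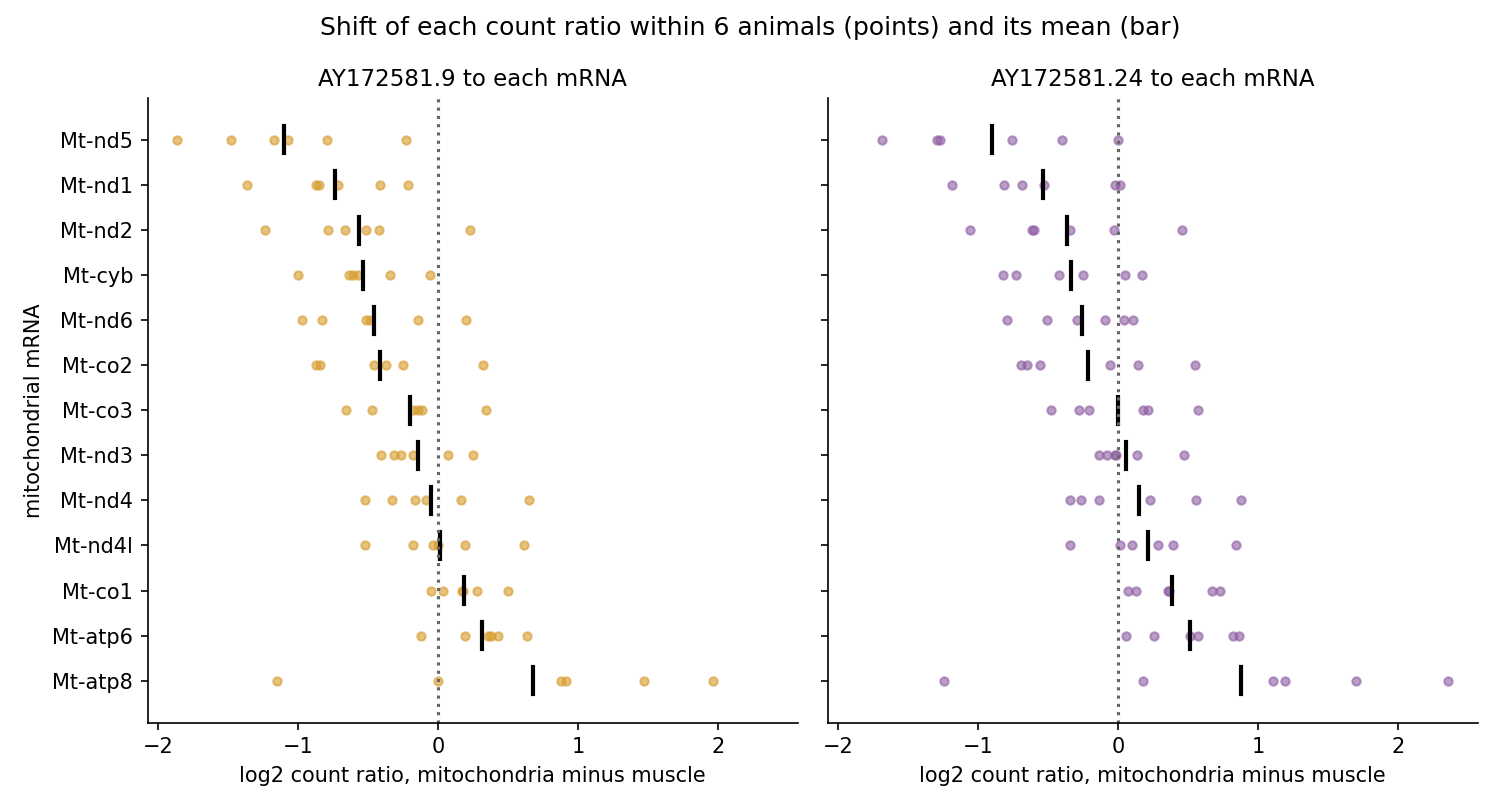
Difference in log2 count ratio within each animal, mitochondria minus whole muscle (x axes), for AY172581.9 (left) and AY172581.24 (right) against each of the 13 Mt- mRNAs (rows). Points are the 6 animals, black bars their means, and the dotted line marks no difference. The means run from -1.10 for AY172581.9 against Mt-nd5 to 0.88 for AY172581.24 against Mt-atp8, and no ratio passed after adjustment over the 26.

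These counts rested on single libraries in part. Without mitochondria replicate 1, 5 ratios of AY172581.9 and 4 of AY172581.24 passed after adjustment. Without mitochondria replicate 4, 3 of AY172581.9 and 1 of AY172581.24 passed, and without muscle replicate 1, 3 of AY172581.9 passed. The rarest mRNA, Mt-atp8, a small subunit of ATP synthase, gave the widest spread: the highest mitochondria library had 4.37 times the ratio of AY172581.9 to Mt-atp8 of the lowest, and 5.35 times that of AY172581.24. In muscle the narrowest ratios were those to Mt-nd6, a complex I subunit, where the highest library had 1.41 times the lowest for AY172581.9 and 1.40 times for AY172581.24.

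A further question was whether the ratios changed with the share of a library that came from the mitochondrial genome, which varied widely among mitochondria libraries. In mitochondria, the log2 ratio of AY172581.24 to AY172581.9 had a Pearson's r of 0.901 with that share (n = 6, exact permutation p = 0.0306, adjusted over 6 relations 0.171). Spearman's rho was 0.771 (n = 6, exact permutation p = 0.103, adjusted p = 0.272), and r was 0.967 without replicates 3 and 4, the libraries farthest from the median share. The libraries with 41.2%, 43.4% and 51.5% of counts from the mitochondrial genome had the 3 highest ratios, and those with 12.9% and 20.3% the 2 lowest. The relation did not pass after adjustment. Replicates 3 and 1, with the lowest shares, also had the fewest gene counts of the mitochondria libraries (888159 and 720111). Replicate 4, with the highest share, had the most (1785865). The share and the number of counts in a library were not told apart here.

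For the ratio of AY172581.24 to the 13 mRNAs in mitochondria, r was 0.800 (n = 6, exact permutation p = 0.0569, adjusted p = 0.171), rho was 0.714 (n = 6, exact permutation p = 0.136, adjusted p = 0.272), and r was 0.723 without replicates 3 and 4. For the ratio of AY172581.9 to the 13 mRNAs, r was 0.681 (n = 6, exact permutation p = 0.136, adjusted p = 0.272), rho was 0.714 (n = 6, exact permutation p = 0.136, adjusted p = 0.272), and r was 0.516 without those libraries. Both genes are part of the share on the other axis, so the measures are not independent.

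In whole muscle, where the share varied little, r was -0.281 for the ratio of AY172581.24 to AY172581.9, 0.481 for that of AY172581.9 to the 13 mRNAs and 0.499 for that of AY172581.24 (n = 6 each, exact permutation p = 0.614, 0.310 and 0.303, adjusted p = 0.614, 0.372 and 0.372). The matching rho values were -0.257, 0.257 and 0.486 (exact permutation p = 0.658, 0.658 and 0.356, adjusted p = 0.658, 0.658 and 0.533). Without replicates 1 and 5 all 3 changed sign, to 0.234, -0.735 and -0.835, so these relations rest on those libraries.

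**Figure D5:**
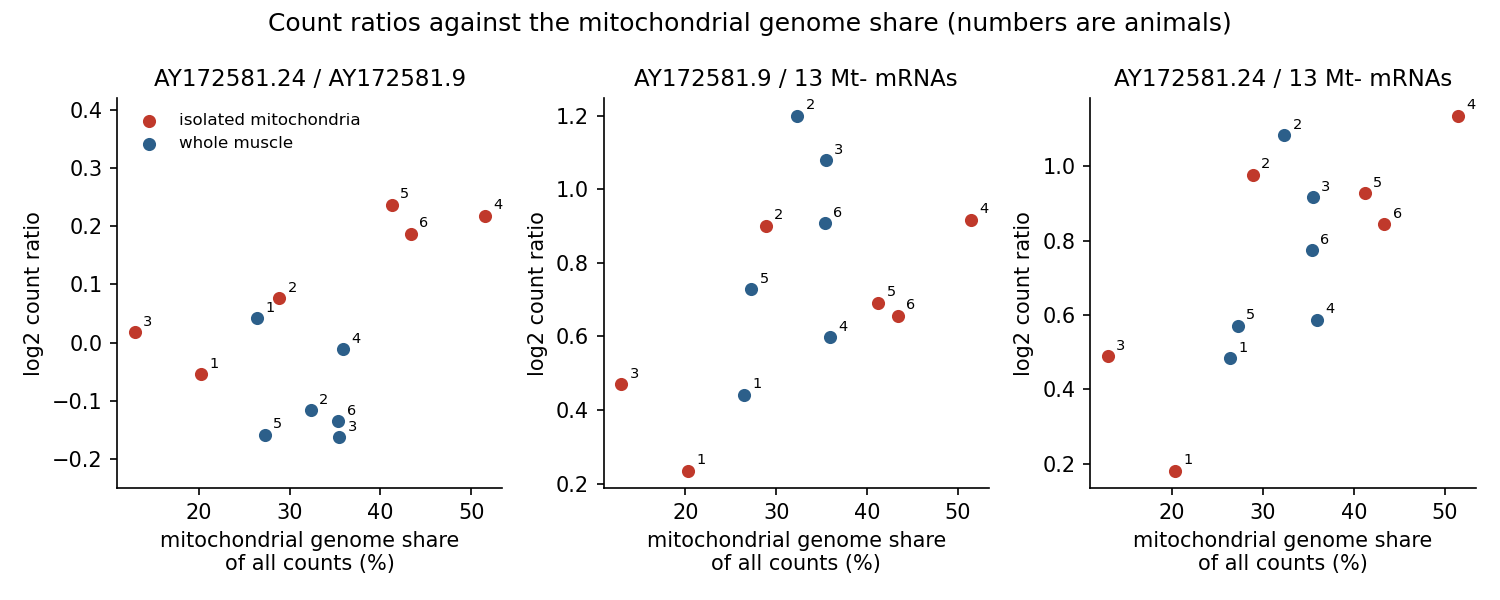
Log2 count ratio (y axes) against the share of all counts from the mitochondrial genome (%, x axes) for AY172581.24 to AY172581.9 and for each gene to the 13 Mt- mRNAs. Red points are the 6 isolated mitochondria libraries, blue points the 6 whole muscle libraries, and numbers are animals. Mitochondria libraries spread from 12.9% to 51.5% on the x axis and muscle libraries from 26.4% to 35.9%, and r in the left panel is 0.901 in mitochondria and -0.281 in muscle.

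No relation between the ratios in mitochondria and in muscle of the same animal passed the test. Across the 6 animals, r between both libraries was -0.352 for AY172581.24 to AY172581.9, 0.380 for AY172581.9 to the 13 mRNAs and 0.224 for AY172581.24 to the 13 mRNAs (exact permutation p = 0.453, 0.467 and 0.658, adjusted over 3 relations 0.658 for each). The matching rho values were -0.257, 0.20 and 0.314 (exact permutation p = 0.658, 0.714 and 0.564, adjusted p = 0.714 for each). Without the 2 animals farthest from the median of the muscle values, r was -0.0727, -0.955 and 0.477, so that the second changed sign.

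The genes whose pattern over libraries was most like that of both genes were other rows of the mitochondrial genome. Likeness was Pearson's r of log2(CPM + 1) over the 12 libraries after the mean of each group was subtracted, among 6362 genes with a mean of at least 10 CPM in each group. AY172581.9 and AY172581.24 were most like each other, with r = 0.991. For AY172581.9 the next 5 were Mt-co1 (r = 0.919), Mt-cyb (0.888), Mt-nd6 (0.881), Mt-co3 (0.868) and Mt-atp6 (0.866). For AY172581.24 they were the same 5 in the same order, with r = 0.932, 0.902, 0.900, 0.895 and 0.891.

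These values are a description and came mostly from the mitochondria libraries, which share the wide range of the mitochondrial genome share. Within the mitochondria libraries alone, r of both genes with each other was 0.998, and within the muscle libraries 0.948. With Mt-nd6, r was 0.897 for AY172581.9 and 0.921 for AY172581.24 in mitochondria, and 0.746 and 0.715 in muscle. With Mt-co3, Mt-atp6, Mt-cyb and Mt-co1, r for AY172581.9 was 0.938 to 0.968 in mitochondria and 0.135, 0.165, 0.218 and 0.492 in muscle. For AY172581.24 these were 0.928 to 0.960 in mitochondria and 0.339, 0.340, 0.434 and 0.621 in muscle. The likeness of both genes to these mRNAs was thus weaker among muscle libraries.

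Nuclear genes for the transcription and maturation of mitochondrial RNA form the surrounding pathway. Of 41 listed, 39 were in the table, of which Ngrn had no count and the other 38 gave 39 rows tested, since Nsun4 has 2 rows. With total counts, 30 rows were called higher in mitochondria, 5 lower and 4 not, beside 84.3% of all genes tested that were higher and 9.03% that were lower. The list had a median log2 fold change of 1.00 against 4.61 over all genes tested. With mitochondrial genome counts as library size, 23 were higher, 2 lower and 14 not, beside 80.8% and 4.33% of all genes, at a median of 1.45 against 4.94. The balance turned with the scale, as 2 rows were higher and 30 lower with TMM factors, beside 62.5% and 30.9% of all genes, at a median of -1.18 against 2.45. With RLE factors 3 were higher and 23 lower, beside 66.5% and 26.7%, at a median of -0.76 against 2.87.

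The 3 members with the highest mean CPM over all 12 libraries were Lrpprc, Dhx30 and Elac2, an order that differs within each group. Lrpprc, which binds and stabilises mitochondrial mRNAs, had 60.3 ± 19.6 CPM in mitochondria and 152 ± 17.7 CPM in muscle (SD, n = 6 each). It was lower in mitochondria with total counts, at -1.38 ± 0.18 on the log2 scale (SE, edgeR adjusted p = 3.93e-11), and also with TMM and RLE factors, at -3.57 and -3.15 (edgeR adjusted p = 1.34e-21 and 9.57e-20). With mitochondrial genome counts as library size it did not pass, at -0.93 (edgeR adjusted p = 0.0642). Dhx30, an RNA helicase of mitochondrial ribosome assembly, had 72.1 ± 18.5 CPM in mitochondria and 35.5 ± 1.69 CPM in muscle, a log2 fold change of 1.00 with total counts and -1.18 with TMM factors (edgeR adjusted p = 8.81e-08 and 4.63e-12). Elac2, the enzyme that cuts tRNAs out of precursors at their 3′ ends, had 65.0 ± 17.3 CPM in mitochondria and 21.3 ± 0.95 CPM in muscle, a log2 fold change of 1.58 with total counts and -0.60 with TMM factors (edgeR adjusted p = 6.52e-14 and 4.61e-06). With RLE factors Dhx30 was at -0.76 and Elac2 at -0.18, of which Elac2 did not pass (edgeR adjusted p = 4.43e-08 and 0.0965). In muscle Grsf1, a binder of mitochondrial RNA, and Hsd17b10, a subunit of the mitochondrial RNase P, had more CPM than Dhx30 and Elac2, and both were picked out here after their values were seen. Grsf1 had 24.01 ± 6.63 CPM in mitochondria and 62.3 ± 8.81 CPM in muscle, and Hsd17b10 6.77 ± 2.42 CPM in mitochondria and 54.9 ± 4.13 CPM in muscle. Both were lower in mitochondria with total counts, with log2 fold changes of -1.41 for Grsf1 and -3.06 for Hsd17b10 (edgeR adjusted p = 1.27e-10 and 8.99e-22). With mitochondrial genome counts as library size they were also lower, at -1.07 and -2.83 (edgeR adjusted p = 0.0435 and 1.78e-06).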

How the data were processed

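The deposited file is a table of whole-number read counts, 1 row per gene and 1 column for each of 12 libraries, with Ensembl identifiers and names. Per the submitters' processing notes, the tools were HTSeq, STAR 2.7.11a, cutadapt 4.6 and FastQC 0.74, with the build mRatBN7.2. For the strand setting, the annotation release and reads that match several places, the settings were not given in the sources used here, so reads shared with an overlapping antisense gene or with near-identical nuclear copies of mitochondrial sequence could not be told apart, and the counts of both genes are uncertain to that extent.

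From the counts, percentages, CPM and count ratios were computed per library. Groups came from the titles, and libraries of 1 animal share an animal number in the labels. As a check of that pairing, deviations from the group means of log2(CPM + 1) were correlated between both libraries of an animal over all genes tested, which gave -0.00449 to 0.0217, and 0 of 6 pairs exceeded 0.1. The check thus gave no sign of a shared animal, and the pairing rests on the labels. By those labels each pair is 1 animal, so the replicates are biological. No replicates agreed within sampling noise (chi-square per degree of freedom at least 1.54).

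The 7 measures and the 26 single ratios were compared with two-sided exact permutation tests over 924 groupings of the libraries (SciPy 1.17.1), with Benjamini-Hochberg adjustment within each family. The whole table was fitted with edgeR 4.0.16 in R 4.3.3 (glmQLFit, glmQLFTest and filterByExpr at a minimum count of 10, with no term beside the group and a threshold of 0.05), with the total count or the mitochondrial genome count as library size and no further factors. SEs of fold changes were derived from F. The code was tested on simulated data. Intervals cover counting error only.

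The genes named are both genes, the 13 Mt- mRNAs, the next unnamed rows by counts, the 5 genes most alike in pattern and the 3 members of the pathway list with the highest mean CPM over all 12 libraries. Ttn, Grsf1, Hsd17b10, Ngrn and Nsun4 were picked out after their values were seen. The members, lists and tests, total counts as the scale among them, were chosen with earlier results of these data known. The alternatives were the animal as a block, each library and each animal left out, TMM and RLE factors, other yardsticks and denominators, no filter, DESeq2 1.42.0, counts thinned to 114922 mitochondrial genome counts per library and, chosen after seeing the data, a fit of the mitochondrial genome rows alone, and the block and left-out libraries for the 26 ratios.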

Additional observations from a re-analysis of the deposited data

How the results depend on the processing

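The main results are the permutation tests and the edgeR fits of the whole table. In these, with all 12 libraries and no scaling factors, no level or ratio of either gene passed after adjustment. TMM and RLE factors ended that for both genes: AY172581.24 passed at -1.85 and -1.44 (log2), below 0 unlike the reported value, and AY172581.9 at -2.12 and -1.70 (edgeR). On the mitochondrial genome scale, TMM factors over its rows gave -0.47 for AY172581.24, which did not pass, and -0.70 for AY172581.9, which did. AY172581.9 also passed in those rows alone, at -0.13 without and with the animal as a block in edgeR, and not in DESeq2. Also below 0, without passing, were the log2 ratio of AY172581.24 to the 13 mRNAs with their geometric mean (-0.030) and without Mt-co1 (-0.19), and its edgeR value with the animal as a block (-0.0097). The AY172581.9 share of all counts was 0.274 points higher in mitochondria, when set against the counts of all genes but these 2, and its share of mitochondrial genome counts set likewise had an adjusted p of 0.677 (exact permutation test). In the rows alone, those 25 genes set the spread and the adjustment; TMM and RLE factors by construction move the scale of every gene. Leaving out single libraries or animals gave 0.17 to 0.26 (log2) for AY172581.24 to AY172581.9, -4.22 to -2.96 points for the AY172581.9 share of mitochondrial genome counts and 1.29 to 3.19 for that of AY172581.24, -2.21 to 1.09 and -0.364 to 3.39 points for the shares of all counts, -0.28 to -0.09 and -0.082 to 0.14 (log2) for the ratios to the 13 mRNAs, -0.27 to 0.072 and -0.044 to 0.33 for the edgeR values with total counts, and -0.16 to -0.11 and 0.05 to 0.12 with mitochondrial genome counts (AY172581.9 first). The 26 ratios gave 0 to 5 passing for AY172581.9 and 0 to 4 for AY172581.24. The cause was not tested. With the animal as a block, AY172581.24 to AY172581.9 stayed at 0.20 and the AY172581.9 share at -3.47 points (sign-flip exact permutation test over 64 patterns, smallest p 0.03125; adjusted p = 0.219 for each). With 1 of the 7 measures and 5 of the 26 ratios of one sign in all 6 animals, none could pass after adjustment, so the paired test says nothing of their stability. In the edgeR fits of the whole table the block changed no call of either gene. The counts of genes called lower in mitochondria were 2228 with total counts, 7630 with TMM and 6580 with RLE, and 1068 with mitochondrial genome counts, 2036 with TMM over its rows and 1823 without mitochondria replicate 3. In the whole table, DESeq2 and no filter changed no call or direction of either gene, nor did thinning for the 3 ratios. The shallow mitochondria libraries limit the rare rows more than either gene, each of which had at least 41629 counts in every library.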
